A study of Mus musculus with 4 samples.

Results

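Polycomb proteins silence genes through 2 chromatin complexes, PRC1 and PRC2, and the mRNA levels of 10 genes encoding their subunits were compared between Control and Cpt1a-KO hematopoietic stem cells. The 10 genes were 6 of PRC2 (Ezh1, Ezh2, Eed, Suz12, Jarid2 and Mtf2) and 4 of PRC1 (Bmi1, Ring1, Rnf2 and Cbx7), out of 55401 gene models in the deposited tables, and all 10 had enough reads to be tested. They were listed by symbol as Polycomb subunits and selected on the KO and Control TPM and counts of these same libraries, with the higher Bmi1 and the Ezh1 to Ezh2 balance already known. The differences between KO and Control given for them are therefore descriptions. Calls on these genes from the fit over all genes are listed below, but nothing is read from those calls.

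The RNA came from bone marrow hematopoietic stem cells (HSCs), labelled ltHSC and called hematopoietic stem and progenitor cells (HSPCs) in the study's text. Control mice were homozygous for a floxed Cpt1a allele (Cpt1a fl/fl; genotype label WT). KO mice carried the same floxed alleles together with Vav1-Cre, which is active throughout the blood lineages, so that every blood cell type, and not stem cells alone, was a target of the deletion. Both kinds of mice were on a C57BL/6, CD45.2 background, no Cre-only group was analysed here, and no label gave age or sex by library. Each group had 2 libraries, made from polyadenylated RNA. No label says that the 2 libraries of a group came from separate mice, so the p-values below measure the spread between libraries, which may be technical. Cpt1a, which encodes an enzyme that brings long-chain fatty acids into mitochondria for oxidation, stood at 37.0 and 35.6 TPM in the Control pair and at 11.5 and 19.2 TPM in the KO pair (log2 difference -1.60, SE 0.15, edgeR adjusted p = 0.00695). TPM is RSEM's relative transcript level, corrected for transcript length and library size.

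PRC2 places methyl groups on a lysine of histone H3, a mark of silenced genes, through its catalytic subunit EZH2 or the related EZH1. PRC1 carries a RING1 or RNF2 ubiquitin ligase joined to a PCGF protein such as BMI1, marks histone H2A, and in its canonical form is brought to methylated H3 by a CBX protein such as CBX7. In the blood system EZH2 is the form linked to dividing cells and EZH1 the one linked to resting cells, while BMI1 is needed for adult HSCs to renew themselves and for silencing of the Cdkn2a locus.

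The promoters of the 3 genes on which the results turned, Bmi1, Ezh2 and Ezh1, are shown because their mRNAs were set against each other below. Each run is the 250 bases before the RefSeq start site in build GRCm38.p6, written 5′ to 3′ on the gene's own strand, with capitals marking an E-box (CACGTG), the letters bound by MYC and related factors.
Bmi1, chr2:18676768-18677017, plus strand: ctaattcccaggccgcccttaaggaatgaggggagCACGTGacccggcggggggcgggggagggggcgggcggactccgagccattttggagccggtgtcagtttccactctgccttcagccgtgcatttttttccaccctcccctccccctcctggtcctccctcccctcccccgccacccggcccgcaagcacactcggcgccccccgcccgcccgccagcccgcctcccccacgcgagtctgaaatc
Ezh2, chr6:47595031-47595280, minus strand: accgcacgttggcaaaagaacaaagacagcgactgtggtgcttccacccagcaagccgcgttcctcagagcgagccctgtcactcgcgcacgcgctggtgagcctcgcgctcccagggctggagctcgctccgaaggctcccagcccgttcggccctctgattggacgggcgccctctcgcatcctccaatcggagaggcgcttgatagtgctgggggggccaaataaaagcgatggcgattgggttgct
Ezh1, chr11:101226464-101226713, minus strand: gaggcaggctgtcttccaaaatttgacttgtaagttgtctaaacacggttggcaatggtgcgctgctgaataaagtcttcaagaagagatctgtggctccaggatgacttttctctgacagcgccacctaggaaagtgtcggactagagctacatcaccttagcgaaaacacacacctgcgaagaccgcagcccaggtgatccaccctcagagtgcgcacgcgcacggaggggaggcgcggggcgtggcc
The single E-box lay 215 bases before the Bmi1 start. Both strands of the 12 windows of the 10 genes were searched for the E-box and for 4 spellings of the E2F motif (TTTCCCGC, TTTCGCGC, TTTGCCGC and TTTGGCGC), the letters bound by the E2F factors of the cell cycle. The E-box was found in 1 of the 12 windows (Bmi1) and in 6.02% of 32851 promoter windows of the same length, and an E2F spelling in 1 of the 12 (Suz12) and in 1.86% of all. The Bmi1, Ezh2 and Ezh1 windows held 70.4%, 63.6% and 55.2% G and C and 21, 23 and 14 CpG pairs, beside medians of 52.4% and 6 over all windows. These matches describe letters, not bound sites.

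Of the PRC2 and PRC1 genes, Ezh2 took a smaller share of the reads in KO (2.14-fold by the group means) and Bmi1 a larger one (2.24-fold), while the core subunits Eed and Suz12 and the ligase Rnf2 differed by 0.05 to 0.18 on the log2 scale. The reads are given as CPM, counts scaled to the reads assigned to genes in that library, which is not corrected for length and is used only to compare 1 gene across libraries. In bulk RNA, fewer cells of a type and less RNA per cell cannot be told apart.

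Ezh2 (ENSMUSG00000029687, chr6:47530139-47595341) was at 213 and 209 CPM in the Control pair and at 113 and 84.8 CPM in the KO pair. Both KO libraries lay well below both Control libraries, and the Control mean of 211 ± 2.65 CPM was 2.14 times the KO mean of 98.7 ± 19.6 CPM (SD, n = 2 each). The fitted log2 fold change was -1.11 (SE 0.14). Corrected for length, Ezh2 was at 163 and 154 TPM in the Control pair and at 119.7 and 76.7 TPM in the KO pair, again without overlap, with the means apart by a factor of 1.62. Leaving out 1 library at a time gave log2 fold changes of -1.32 to -0.92, the largest without KO replicate 1 and the smallest without KO replicate 2.

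Ezh1 (ENSMUSG00000006920, chr11:101191115-101226463), which can take the catalytic place of Ezh2, was at 62.2 and 70.5 CPM in the Control pair and at 58.9 and 53.3 CPM in the KO pair. The KO libraries were again the lower pair, by a narrow margin, and the fitted log2 fold change was -0.25 (SE 0.16). In TPM, Ezh1 was at 39.2 and 30.5 in Control and at 23.2 and 25.3 in KO.

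The balance between the catalytic subunits was read as the ratio of Ezh1 to Ezh2 in TPM within each library. It was 0.240 and 0.198 in Control and 0.193 and 0.330 in KO. The KO libraries lay on either side of the Control pair, so the groups overlapped, with a difference of 0.21 in mean log2 ratio beside SDs of 0.20 in Control and 0.54 in KO. Ezh1 made up 19.3% and 16.5% of the summed Ezh1 and Ezh2 TPM in Control and 16.2% and 24.8% in KO. Without KO replicate 2 the difference in mean log2 ratio turned to -0.17, and without KO replicate 1 it was 0.60. When reads were not corrected for length, both KO libraries lay above both Control libraries and the difference in log2 ratio was 0.87. The sum of Ezh1 and Ezh2, unlike their ratio, separated the groups in TPM, at 202 and 185 TPM in the Control pair and 143 and 102 TPM in the KO pair.

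**Figure D1:**
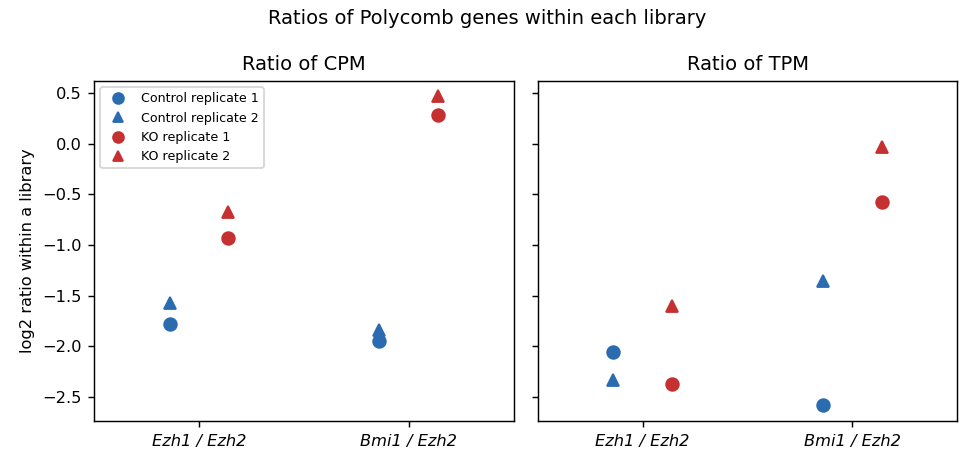
Log2 ratios of Ezh1 to Ezh2 and of Bmi1 to Ezh2 within each library, from CPM in the left panel and from TPM in the right, with 1 point per library (Control blue, KO red). Since CPM is not corrected for length, the left panel compares libraries and not the levels of the 2 genes. The Ezh1 to Ezh2 ratios of KO span those of Control in TPM (KO at -2.37 and -1.60, Control at -2.06 and -2.34) and lie above them in CPM, and the Bmi1 to Ezh2 ratios of KO lie above those of Control on both scales. The Bmi1 to Ezh2 separation follows from the higher Bmi1 and lower Ezh2 in both KO libraries.

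The core PRC2 subunits lay close together in the 2 groups. Eed (ENSMUSG00000030619, chr7:89954654-89980983), which reads the methyl mark, was at 76.5 and 86.5 CPM in the Control pair and at 84.3 and 85.9 CPM in the KO pair (log2 difference 0.05, SE 0.14). Suz12 (ENSMUSG00000017548, chr11:79993106-80034123), the scaffold of the complex, was at 169 and 173 CPM in the Control pair and at 201 and 190 CPM in the KO pair. Suz12 was thus higher in both KO libraries by a small margin (log2 difference 0.18, SE 0.10), and did the same in TPM, at 56.4 and 59.1 in Control and 69.4 and 64.5 in KO. Eed overlapped between groups on both scales.

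Of the accessory PRC2 subunits, Jarid2 separated the groups in CPM but not in TPM, and Mtf2 did so on neither scale. Jarid2 (ENSMUSG00000038518, chr13:44729474-44921643), which helps recruit PRC2 and lacks the demethylase activity of its protein family, was at 105 and 92.9 CPM in the Control pair and at 135 and 134 CPM in the KO pair (log2 difference 0.43, SE 0.12). In TPM it was at 45.8 and 30.4 in Control and at 34.8 in each KO library, inside the Control range. Mtf2 (ENSMUSG00000029267, chr5:108065674-108109004), a Polycomb-like protein that ties PRC2 to CpG-rich DNA, overlapped on both scales, at 159 and 109.5 CPM in the Control pair and 164 and 135 CPM in the KO pair. Its gene body shares 2639 bases with Tmed5 on the opposite strand, and the strand setting of the counting was not given in the sources used here.

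Bmi1 (ENSMUSG00000026739, chr2:18677018-18686629) was the PRC1 gene that stood apart. It was at 55.3 and 58.4 CPM in the Control pair and at 137 and 117 CPM in the KO pair, from 1139, 1361, 4686 and 3982 estimated counts in the same order. Both KO libraries lay above both Control libraries, with the KO mean of 127 ± 14.2 CPM at 2.24 times the Control mean of 56.9 ± 2.20 CPM (SD, n = 2 each), and the fitted log2 fold change was 1.15 (SE 0.14). In TPM the Control libraries were far apart, at 27.2 and 60.45, and the KO libraries were at 80.2 and 74.9, so that the groups stayed apart but the means differed by a factor of 1.77. Leaving out 1 library at a time gave log2 fold changes of 1.04 to 1.26.

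The other PRC1 genes overlapped between groups in CPM. Ring1 (ENSMUSG00000024325, chr17:34020792-34024680), one of the pair of ubiquitin ligases, was at 32.0 and 28.6 CPM in the Control pair and at 41.0 and 29.9 CPM in the KO pair (log2 difference 0.21, SE 0.23). In TPM, Ring1 was higher in both KO libraries, at 39.25 and 35.4 beside 24.3 and 21.7 in Control. Without KO replicate 1 its fitted log2 fold change in counts was -0.02. Rnf2 (ENSMUSG00000026484, chr1:151458004-151500955), the other ligase, was at 62.0 and 82.0 CPM in the Control pair and 69.45 and 84.7 CPM in the KO pair. Cbx7 (ENSMUSG00000053411, chr15:79915807-79971119), which binds the methyl mark for PRC1, was at 37.7 and 24.6 CPM in the Control pair and 32.7 and 26.8 CPM in the KO pair. For Rnf2 and Cbx7 the spread within a group was wider than the distance between groups, with log2 fold changes of 0.09 (SE 0.19) and -0.08 (SE 0.26). Rnf2 shares 158 bases with Trmt1l, and Cbx7 shares 100 bases with Apobec3, each on the opposite strand.

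**Figure D2:**
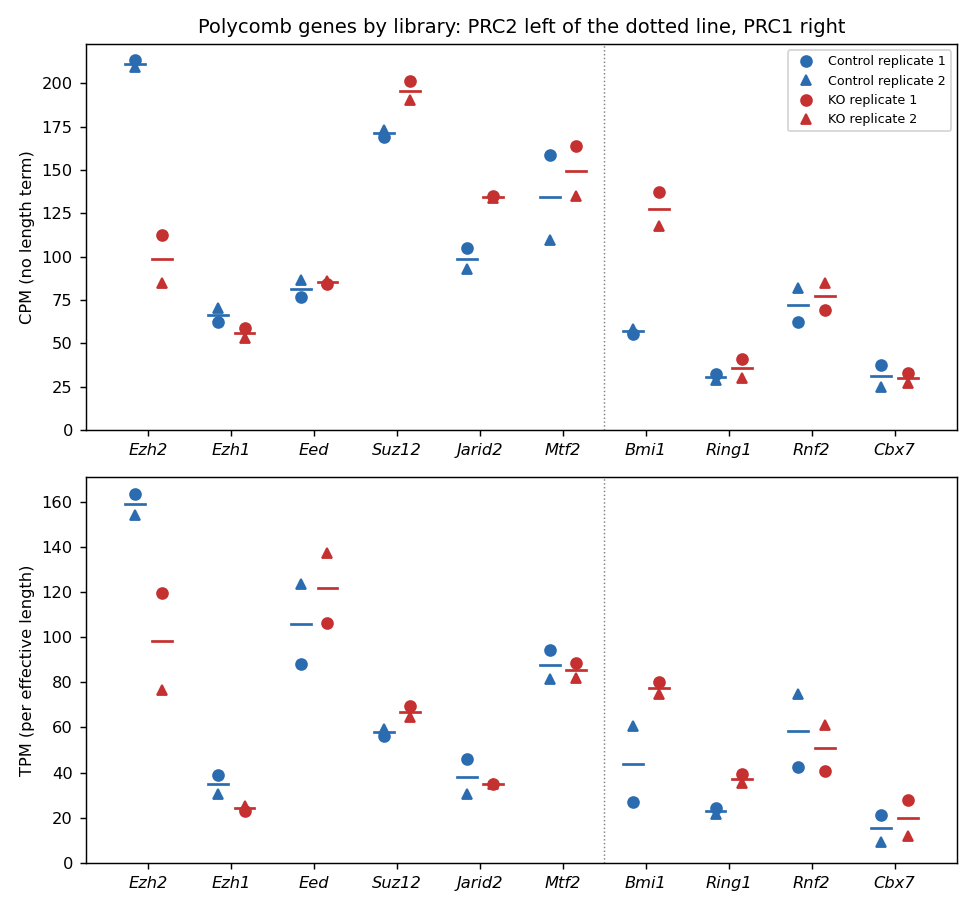
Levels of the 10 Polycomb genes in each of the 4 libraries, in CPM above and in TPM below, with 1 point per library (Control blue, KO red) and a short line at each group mean. Ezh2 is lower and Bmi1 higher in both KO libraries on both scales, Jarid2 separates only in CPM and Ring1 only in TPM.

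Over the 10 genes, edgeR at an adjusted p under 0.05 called Bmi1 higher and Ezh2 lower in KO, in a table where 0.451% of the 14635 genes tested were called higher and 0.212% lower. Because this contrast helped choose the genes, nothing is read from those counts. DESeq2, which called 4.26% of genes higher and 3.51% lower, added Jarid2 to the higher side. Without KO replicate 1, Bmi1 was no longer called, and with counts corrected for effective length neither gene was called, at log2 fold changes of 0.80 for Bmi1 and -0.71 for Ezh2. In CPM, both KO libraries lay above both Control libraries for 3 of the 10 genes (Suz12, Jarid2 and Bmi1) and below for 2 (Ezh1 and Ezh2), beside 23.6% and 18.3% of all genes tested. In TPM the split was 3 above (Suz12, Bmi1 and Ring1) and the same 2 below, beside 23.1% and 16.8%. The median log2 fold change was 0.12 over the 10 genes and 0.01 over all genes tested.

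**Figure D3:**
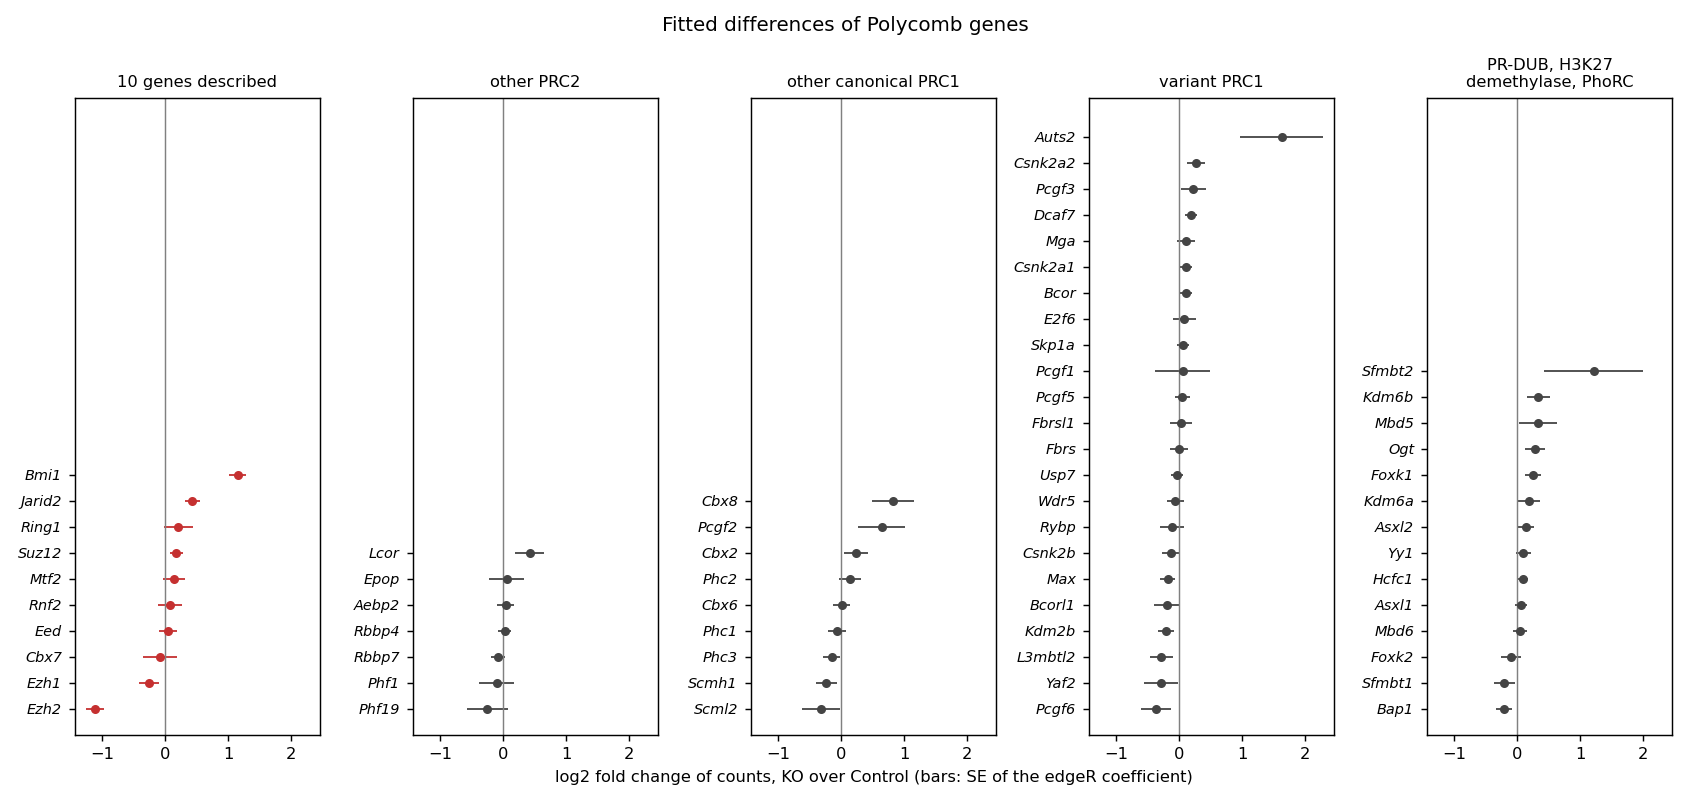
Fitted log2 fold change of KO over Control for the 10 Polycomb genes (red, left panel) and the 53 other Polycomb genes tested (grey, by group), with bars of 1 standard error from edgeR. Among the 10, Ezh2 at -1.11 and Bmi1 at 1.15 lie farthest from 0 and the rest lie between -0.25 and 0.43, and among the others Auts2, at 1.62, has the highest value with a wide bar.

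The split between CPM and TPM came with differences in effective length. This is the mean length of the transcript mix that RSEM assigned to a gene in a library, reduced to allow for fragment size. For Bmi1 it was 2799 and 1327 bases in Control and 2416 and 2180 bases in KO, so the single short value of Control replicate 2 went with the high TPM of that library. For Ezh2 it was 1796 and 1864 bases in Control and 1324 and 1538 bases in KO. For Jarid2 it was 3148 and 4192 bases in Control and 5461 and 5347 bases in KO, and for Ring1 1812 and 1813 bases in Control and 1470 and 1175 bases in KO. The longest value was 2.11 times the shortest for Bmi1 and 1.02 times for Suz12, beside a median of 1.17 and a 90th percentile of 2.26 over all genes tested. Reads of the 10 genes were assigned with almost no ambiguity between genes: RSEM's posterior SD of the count was 0 in every library except 0.16 and 0.05 counts for Bmi1 in Control replicate 2 and KO replicate 1. Why the lengths differed was not tested.

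**Figure D4:**
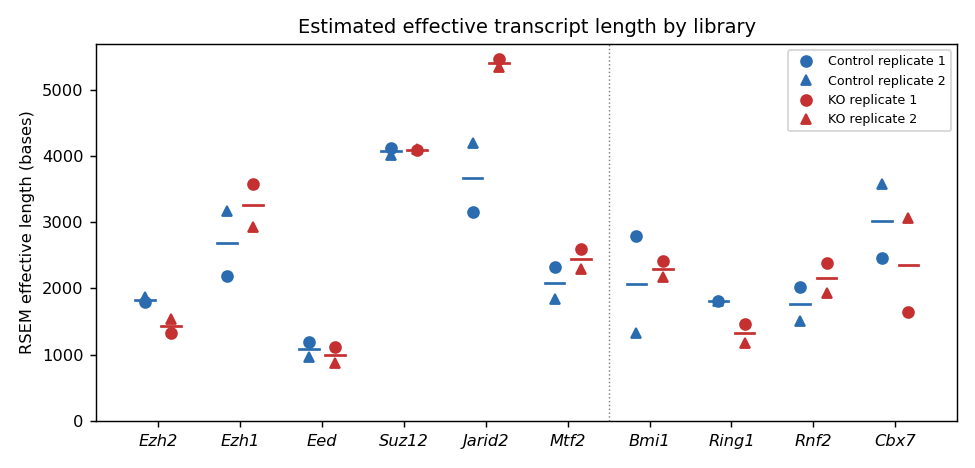
Effective length in bases of each of the 10 Polycomb genes in each library. Suz12 is nearly level, while Bmi1 drops to 1327 bases in Control replicate 2 and Jarid2 is longer in both KO libraries.

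By TPM, Ezh2 was the most abundant of the 10 in Control (159 ± 6.34, SD, n = 2), followed by Eed (106 ± 25.1), Mtf2 (87.8 ± 8.93), Rnf2 (58.5 ± 22.9), Suz12 (57.8 ± 1.94), Bmi1 (43.8 ± 23.53), Jarid2 (38.1 ± 10.9), Ezh1 (34.8 ± 6.12), Ring1 (23.0 ± 1.87) and Cbx7 (15.3 ± 8.23). From Rnf2 down to Ezh1 each neighbouring pair overlapped between libraries, and so did Eed and Mtf2, while Ezh2 stood above Eed, Mtf2 above Rnf2, Ezh1 above Ring1 and Ring1 above Cbx7. In KO the order was Eed (122 ± 21.9), Ezh2 (98.2 ± 30.4), Mtf2 (85.3 ± 4.87), Bmi1 (77.5 ± 3.72), Suz12 (66.9 ± 3.46), Rnf2 (50.9 ± 14.2), Ring1 (37.3 ± 2.71), Jarid2 (34.8), Ezh1 (24.2 ± 1.51) and Cbx7 (20.1 ± 11.2). Eed, Ezh2 and Mtf2 overlapped as neighbours there, as did Ezh1 and Cbx7. Bmi1 took the sixth place in Control and the fourth in KO.

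The ratio of Bmi1 to Ezh2 joined the 2 genes with the widest differences. In TPM it was 0.166 and 0.392 in Control and 0.670 and 0.977 in KO, so both KO libraries lay above both Control libraries. This separation had to follow, because Bmi1 was higher and Ezh2 lower in both KO libraries, and it adds no further result. The mean log2 ratio was -1.97 ± 0.87 in Control and -0.31 ± 0.39 in KO (SD, n = 2 each), a difference of 1.66. In CPM the same difference was 2.27. The Ring1 to Rnf2 ratio in TPM, 0.574 and 0.290 in Control and 0.959 and 0.581 in KO, put Control replicate 1 and KO replicate 2 almost level, and in CPM the groups overlapped.

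Related genes that can take the same place in a complex were compared as shares of their summed TPM. Bmi1 is 1 of 6 PCGF genes, and it made up 19.3% and 38.9% of PCGF TPM in Control and 41.5% and 41.1% in KO. The summed PCGF TPM was 141 and 156 in Control and 193 and 182 in KO. Pcgf5, a variant PRC1 subunit, was the other large share, at 37.0% and 27.7% in Control and 26.0% and 28.4% in KO. Of the summed TPM of the 4 CBX genes compared here (Cbx2, Cbx6, Cbx7 and Cbx8), Cbx7 held 22.6% and 12.2% in Control and 25.7% and 12.3% in KO, an overlap, and Cbx6 was the largest in every library, from 39.8% to 59.9%. Cbx8, another reader of the methyl mark, was at 7.22% and 9.13% in Control and 15.1% and 18.3% in KO. Among the Polycomb-like genes Mtf2 was the largest in every library, from 66.2% to 80.3%, and Phf19 was at 22.1% and 12.9% in Control and 10.8% and 6.86% in KO. In CPM, Phf19 overlapped between the groups.

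**Figure D5:**
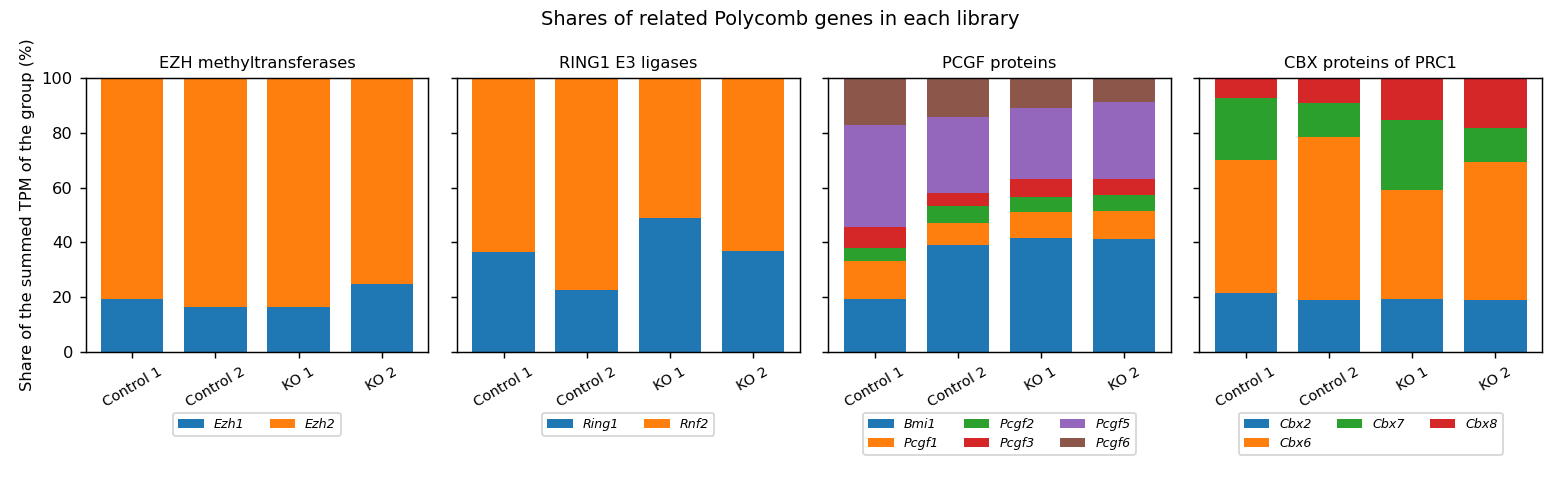
Share of the summed TPM held by each related gene within the EZH, RING1, PCGF and CBX groups (Cbx2, Cbx6, Cbx7 and Cbx8), as stacked bars in percent, with 1 bar per library. The Bmi1 share in KO (41.5% and 41.1%) lies near that of Control replicate 2 (38.9%) and above that of Control replicate 1 (19.3%), and the Cbx8 share is higher in both KO libraries.

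Of 55 further Polycomb genes listed by role, 53 had enough reads to be tested and Ezhip and Asxl3 were listed at 0 counts. By edgeR 0 of the 53 passed an adjusted p under 0.05 in either direction, and DESeq2 and limma also called 0. At an unadjusted p under 0.05, edgeR gave 2 higher (Auts2 and Cbx8) and 0 lower, and DESeq2 gave 4 higher and 0 lower. Over all genes tested the shares at that limit were 5.81% higher and 4.61% lower by edgeR, and 10.4% and 8.8% by DESeq2, so the counts of higher genes in the list were no larger a share than the background. Their log2 fold changes ran from -0.37 to 1.62 with a median of 0.05, beside 0.01 for all genes tested, and 33 were above 0 and 20 below.

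The other PRC2 genes (7 tested, median log2 fold change 0.03) included Phf19, which was at 31.4 and 14.4 TPM in the Control pair and 13.2 and 6.99 TPM in the KO pair, with an edgeR log2 fold change of -0.25, an SE of 0.33 and an adjusted p of 0.898. In CPM the groups overlapped for Phf19, at 24.4 and 32.2 in Control and 31.0 and 17.1 in KO. Its effective length was 1067 and 3076 bases in Control and 3314 and 3402 bases in KO. The histone-binding subunits Rbbp4 and Rbbp7 gave log2 differences of 0.03 (SE 0.10) and -0.08 (SE 0.11). Those of the accessory genes Aebp2, Phf1 and Lcor were 0.05 (SE 0.13), -0.10 (SE 0.28) and 0.43 (SE 0.23), and edgeR adjusted p-values over these 6 genes were all above 0.05, with the smallest at 0.574 for Lcor.

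The canonical PRC1 genes (9 tested, median 0.01) had Cbx8 as the gene with the smallest p. Cbx8 was at 6.75 and 7.07 TPM in the Control pair and at 16.5 and 18.0 TPM in the KO pair, without overlap, with an edgeR log2 fold change of 0.82, an SE of 0.34 and an adjusted p of 0.460. Its counts were 165 and 242 in Control and 530 and 586 in the more deeply sequenced KO libraries. In CPM it was at 8.01 and 10.4 in Control and 15.55 and 17.3 in KO. The Cbx8 means differed by a factor of 1.78 in CPM and 2.5 in TPM. Pcgf2, the nearest relative of Bmi1, was at 6.99 and 9.49 TPM in the Control pair and 10.1 and 10.99 TPM in the KO pair (log2 difference 0.65, SE 0.37, edgeR adjusted p = 0.604). Cbx2 and Cbx6 gave log2 differences of 0.24 and 0.01, and Scmh1, a PRC1-associated gene, -0.24 (SE 0.17, edgeR adjusted p = 0.706).

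The variant PRC1 genes (23 tested, median 0.03) had Auts2, a partner of PCGF3 and PCGF5 complexes, at the top with a log2 fold change of 1.62, an SE of 0.66 and an edgeR adjusted p of 0.456. Its counts were 44 and 275 in Control and 715 and 773 in KO, so Control replicate 2 lay between Control replicate 1 and the KO pair, and without Control replicate 2 the gene passed the edgeR threshold. In CPM, Auts2 was at 2.14 and 11.8 in Control and at 21.0 and 22.8 in KO. Pcgf1, Pcgf3, Pcgf5 and Pcgf6 gave log2 differences of 0.06, 0.23, 0.05 and -0.37. Dcaf7 and the kinase subunit Csnk2a2 had 0.19 (SE 0.10) and 0.27 (SE 0.14), with edgeR adjusted p-values of 0.562 and 0.574. Genes of the H2A deubiquitinase complex, the H3 demethylases and the DNA-binding PhoRC complex (14 tested, median 0.12) had their smallest p-values at Foxk1, with a log2 fold change of 0.25 (SE 0.12), the demethylase gene Kdm6b at 0.34 (SE 0.18) and Ogt at 0.28 (SE 0.16), with edgeR adjusted p-values of 0.538, 0.566 and 0.587.

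Of 4 known Polycomb targets, Ebf1 and Pax5 passed the threshold, Cdkn2a did not and Cdkn2b was too low to test, and none had a lower value in KO than in Control. Cdkn2a, the cell cycle inhibitor locus that BMI1 silences, had 0 counts in each Control library and 24 and 42 counts in KO, at least 14.2-fold higher than a floor of 3 counts over the Control group, with an edgeR adjusted p of 0.491. The neighbouring Cdkn2b had 0, 0, 0 and 2 counts. Ebf1 and Pax5, B cell transcription factor genes held silent by Polycomb in stem cells, were at 1.66 and 1.60 TPM and at 1.99 and 5.14 TPM in Control. In KO they were at 17.6 and 10.6 TPM and at 30.4 and 12.96 TPM. By edgeR, Ebf1 rose with a log2 fold change of 2.71, an SE of 0.34 and an adjusted p of 0.0167 and Pax5 with 2.49 (SE 0.34, adjusted p = 0.0232). Both genes also belong to the B lineage markers given next. The 4 targets were chosen with earlier results of these data known, so their p-values describe and do not test. Over all genes tested, edgeR called 0.451% higher and 0.212% lower.

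Markers of other cell types moved with the comparison. These lists were also chosen with earlier results of these data known, so the calls on them are descriptions. They stand beside 0.451% of all genes tested called higher and 0.212% called lower by edgeR. The summed TPM of 12 B lineage genes was 62.3 and 96.6 in Control and 649 and 445 in KO, with 9 of 12 called higher by edgeR and Ms4a1 at 0 in both Control libraries. That of 12 erythroid genes was 1417 and 1292 in Control and 556 and 616 in KO, with 7 of 11 tested called lower and Slc4a1 at 0 in both KO libraries. Mast cell genes summed to 453 and 377 TPM in the Control pair and 730.2 and 827 TPM in the KO pair. Of these 10 genes, 4 were called higher, and Cma1, Tpsb2 and Tpsab1 were at 0 in Control. Both KO libraries lay above both Control libraries for 7 of the 10, while Gata2, Hdc and Fcer1a overlapped. Kit and Gata2 were the largest values in the Control sum, and Gata2 was at 112 and 104 TPM in Control and 111 and 111 TPM in KO. Neutrophil genes summed to 11858 and 8152 TPM in the Control pair and 6355 and 6531 TPM in the KO pair, with 1 of 10 called lower. The summed TPM of 18 proliferation genes was 3478 and 3289 in Control and 3603 and 3612 in KO, with 0 called by edgeR. At an unadjusted p under 0.05, edgeR gave 2 of them higher and 0 lower, beside 5.81% and 4.61% of all genes tested. In TPM, both KO libraries lay above both Control libraries for 6 of the 18 and below for 3, beside 23.1% and 16.8% of all genes tested. The part of these cell types in the Bmi1, Ezh2 and target gene values was not tested. The sum of 10 stem cell markers was 501 and 544 TPM in the Control pair and 542 and 555 TPM in the KO pair, with Kit (also a mast cell gene) from 232 to 275 TPM and Hlf from 73.0 to 86.3 TPM, while Slamf1 was low, from 2.88 to 4.83 TPM, and Hoxb5 was at 0.65 and 1.12 TPM in the Control pair and 0.18 and 0 TPM in the KO pair.

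Control replicate 2 stood apart for immediate early genes, which respond to handling and stress within minutes. The 10 genes summed to 7125 TPM there and to 408 to 645 TPM in the other libraries. Without that library the log2 fold change was -1.11 for Ezh2, 1.21 for Bmi1, -0.15 for Ezh1, 0.36 for Jarid2, 0.22 for Suz12 and 0.15 for Ring1. The genes nearer to 0 moved more: Mtf2 turned from 0.15 to -0.08, Rnf2 went from 0.09 to 0.32, Cbx7 from -0.08 to -0.34 and Eed from 0.05 to 0.16. Depth ran from 20589218 to 23291747 assigned reads in Control and from 33909781 to 34083159 in KO, and the lowest count of any of the 10 genes in a library was 574, for Cbx7 in Control replicate 2. In 73.5% of genes with at least 20 counts the Control libraries differed by more than counting noise, and in 71.9% the KO libraries did.

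The genes whose levels followed Bmi1 most closely over the 4 libraries were Unc5a, Itm2a, Pdzd4, Pde3b and Tespa1, at distances of 0.03 to 0.15 in centred log2 CPM. The comparison ran over 14635 genes and, with 4 libraries, is a description. In all, 272 of these genes had a Pearson correlation of at least 0.99 with Bmi1, so the 5 named are not particular to it.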

How the data were processed

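Polyadenylated RNA of sorted bone marrow HSCs was sequenced in 2 Control and 2 KO libraries, and the authors deposited 1 table of gene results per library. Per the labels, reads were aligned with STAR and quantified with RSEM against mm10, with versions and the strand setting of the counting not given in the sources used here. The deposited values were expected counts (estimated reads per gene, not normalised), TPM and effective lengths, and their posterior means and SDs, none pooled over replicates.

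Expected counts were rounded and tested with the quasi-likelihood test of edgeR 4.0.16 (robust fit, TMM scaling, low-count filter with a minimum of 10), with Benjamini-Hochberg adjustment over all 14635 genes tested and a call at an adjusted p under 0.05. The biological coefficient of variation was 0.471. An exact permutation test of 2 against 2 libraries cannot give a p under 0.333, so none was used. Alternatives were median-ratio size factors, DESeq2 1.42.0, no filter, an effective length offset, posterior mean counts, limma 3.58.1 on log2(TPM + 1) and log2(TPM + 0.1), a replicate block, and leaving out each library. The edgeR code was tested on simulated data.

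Gene symbols, positions and transcript models came from the annotation matched by gene identifier, and promoters from RefSeq (GRCm38.p6), which matched all 10 genes. The members and gene lists were chosen with earlier results of these data known. Besides the members, the text names related genes of the same subunit families, the PRC2 subunits Rbbp4, Rbbp7 and Aebp2, the 3 genes with the smallest p in each Polycomb group, 4 known targets, the 5 genes nearest to Bmi1 and Cpt1a. Genes named among the cell type markers, Ezhip and Asxl3, and the neighbours Commd3, Tmed5, Trmt1l and Apobec3, named for their positions, fall outside that rule and were picked with values in view. A related gene was taken out of the lists, shares and counts and is not reported here.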

Additional observations from a re-analysis of the deposited data

How the results depend on the processing

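Over all genes tested, edgeR called 66 higher and 31 lower in KO, and these counts moved with the method: DESeq2 called 623 and 513, edgeR without the low-count filter 111 and 85, edgeR with an effective length offset 3 and 1, limma on log2(TPM + 1) 5 and 0, and limma on log2(TPM + 0.1) 0 and 0. Leaving out 1 library at a time gave 24 to 238 higher and 18 to 144 lower. Of the 10 Polycomb genes, 1 was called higher and 1 lower. Nothing is read from these calls under any setting, because this contrast helped choose the genes. DESeq2 called 2 higher, the effective length offset and both limma fits called 0 higher and 0 lower, and leaving out 1 library gave 0 to 1 higher, with 0 (Bmi1 lost) without KO replicate 1. Of the other Polycomb genes, 0 to 1 were called higher when 1 library was left out, with 1 (Auts2) without Control replicate 2. The Ezh1 to Ezh2 difference in mean log2 ratio was 0.21 in TPM and 0.87 in CPM, and -0.17 to 0.60 in TPM with 1 library left out. The sign of the log2 fold change held in 12 of 12 alternatives for Ezh1, Ezh2, Suz12 and Bmi1, in 11 for Eed and Ring1, in 9 for Jarid2, in 8 for Mtf2 and in 7 for Rnf2 and Cbx7. All alternatives reused the libraries that helped choose the genes, so they show dependence on the method only. The cause of these shifts was not tested, beyond the smaller samples and the length correction that the alternatives themselves impose.

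With the replicate number as a block, edgeR called 62 genes higher and 36 lower, 1 and 1 of the 10 Polycomb genes and 0 of the others. Deviations of same-numbered libraries from their group means correlated at -0.02 across genes, and the block changed no call on a Polycomb gene. With 2 libraries per group this cannot show whether or not the numbers mark a shared batch. The 2 libraries per group limit every comparison, and the lone library left in a group was assumed to vary like the rest.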

Other observations

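Commd3, whose last base lies 786 bases before the Bmi1 start on the same strand (chr2:18672384-18676231), was at 95.3 and 96.9 TPM in Control and at 145 and 123 TPM in KO, with a log2 fold change of 0.47 (SE 0.17). Both KO libraries lay above both Control libraries, as they did for Bmi1 at 1.15. The same separation was seen in 23.1% of all genes tested in TPM and in 23.6% in CPM. The gene was chosen for its position after the Bmi1 values were seen.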
